A study of Homo sapiens with 8 samples.

Results

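The data presented here are the RNA levels of 32 genes of cholesterol and fatty acid synthesis in HCT-8 colon cancer cells and their 5-FU-resistant derivative. The 32 genes were taken as a list of symbols and matched to the Ensembl gene identifiers of the count tables; each symbol matched 1 identifier, out of 64253 in the tables. Of the 32, 19 encode enzymes from acetoacetyl-CoA through mevalonate to cholesterol, 5 encode regulators of the pathway or a sterol carrier, and 8 encode enzymes of fatty acid synthesis, elongation and desaturation. All 32 passed the filter on low counts, which kept 20305 genes for testing.

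HCT-8 is a human colorectal adenocarcinoma cell line, and HCT-8/FU is a derivative resistant to 5-fluorouracil (5-FU), a fluoropyrimidine drug that blocks thymidylate synthesis. Poly(A)-selected RNA was sequenced from 4 groups of 2 libraries each: HCT-8 in unconditioned medium, HCT-8/FU in unconditioned medium, and HCT-8 cells given conditioned medium (CM) from either HCT-8 cells or HCT-8/FU cells, called CM of HCT-8 and CM of HCT-8/FU. All groups were grown with 10% fetal bovine serum, which itself carries cholesterol and fatty acids, and CM was collected over 48 h. No 5-FU dose is given for any library, the sources used here do not give the time that cells spent in CM, and each line is a single line whose 2 libraries are not said to come from separate cultures, so the p-values measure the spread between these libraries only.

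Cells make cholesterol from acetyl-CoA through mevalonate, squalene and lanosterol. The transcription factors encoded by SREBF2 and SREBF1 switch on the genes of this route and of fatty acid synthesis. When membrane sterol is low, SCAP carries these factors from the endoplasmic reticulum to the Golgi for cleavage, and INSIG1 holds them back when sterol is plentiful, so that most genes of the route are known to rise or fall together. Serum lipoproteins supply sterol from outside and are known to keep the route low.

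The total count on genes ran from 5804124 to 34881349 per library. In HCT-8 replicate 1, in replicate 2 of HCT-8/FU and replicate 1 of CM of HCT-8, 19.96% to 29.58% of records were not aligned, against 3.575% to 4.433% in the other 5 libraries. The libraries also differed in how the level of a gene went with its GC content: across 19857 genes Spearman's rho was -0.488 and -0.452 in HCT-8/FU, CM of HCT-8 had 0.375 and 0.534, and it lay between -0.0652 and 0.215 in the other 4. A correction for the GC content and the length of genes was therefore run beside each comparison, and its values are given beside the members whose call it changed. Of 8 colon epithelium markers, KRT8, KRT18, CDH1, EPCAM, VIL1, CDX2 and LGALS4 were well detected and CEACAM5 stayed at or under 0.836 counts per 1000000 counts (CPM). The summed level of the 8 was 8856 to 8929 CPM in HCT-8, 8484 to 8857 in HCT-8/FU, 9663 to 10563 in CM of HCT-8 and 8807 to 8844 in CM of HCT-8/FU. VIL1, the microvillus protein villin, was at 150 to 159 CPM in HCT-8 and at 247 to 300 CPM in the other groups. A gene on the other strand covers 44.2% of its exonic bases. EPCAM (298 to 347 CPM) and CDX2 (71.1 to 80.2 CPM) were also lowest in HCT-8, with 422 to 502 and 88.8 to 127 CPM elsewhere. CDH1 went the other way, with 1080 to 1120 CPM in HCT-8 and 827 to 1000 CPM elsewhere. LGALS4 was at 156 to 176 CPM in HCT-8 and at 112 CPM in HCT-8/FU. The part of these shifts in the results below was not tested. The 9 markers of leukocytes, fibroblasts, endothelium, hepatocytes and fat cells summed to 11 to 16 CPM, most of it COL1A1, with PTPRC, CD3E and ADIPOQ at 0.

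Expressed per kilobase of exon, the fatty acid genes SCD, ACLY and FASN led the 32. The other fatty acid genes ran from 12.9 (ACACA) to 2.33 (FADS2) CPM per kilobase. The mean over all 8 libraries was 60.4 CPM per kilobase for SCD, the stearoyl-CoA desaturase, 47.9 for ACLY, which makes cytosolic acetyl-CoA from citrate, and 46.6 for FASN, the fatty acid synthase. SREBF2 and SREBF1 followed at 33.4 and 29.6 CPM per kilobase. In the sterol branch the farnesyl diphosphate synthase FDPS had 26.8 CPM per kilobase, the squalene synthase FDFT1 19.9 and the lamin B receptor LBR, which is also a sterol reductase, 19.8. The lanosterol demethylase CYP51A1 was lowest of the 32 at 0.778 CPM per kilobase, with 15 raw counts in replicate 1 of HCT-8. The summed level of the 19 sterol synthesis genes was 810 CPM in both HCT-8 libraries and 807 and 875 CPM in the HCT-8/FU libraries. With CM of HCT-8 it was 824 and 829 CPM, and with CM of HCT-8/FU 771 and 788 CPM. The 8 fatty acid genes together made 1262 to 1265 CPM in HCT-8 and 1359 to 1506 CPM in the other 6 libraries. The 5 genes of regulation and sterol transport together made 646 and 653 CPM in HCT-8/FU, below each of the other 6 libraries, which ranged from 675 to 736 CPM and overlapped between their 3 groups. Reads of some members can overlap or match other loci. Of exonic bases, 37.7% of HMGCS1, 18.6% of FDPS, 17.2% of ACAT2, 15% of IDI1 and 9.08% of SREBF2 lie under a gene on the other strand. With the strand setting not given, reads there may be lost as ambiguous or may come from the partner gene. FDPS has 8 named pseudogenes, IDI1 and CYP51A1 3 each, HSD17B7 2 and SCD 1. Records set aside as ambiguous (1.147% to 1.573%) or not unique (2.236% to 3.48%) were not counted for any gene.

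**Figure D1:**
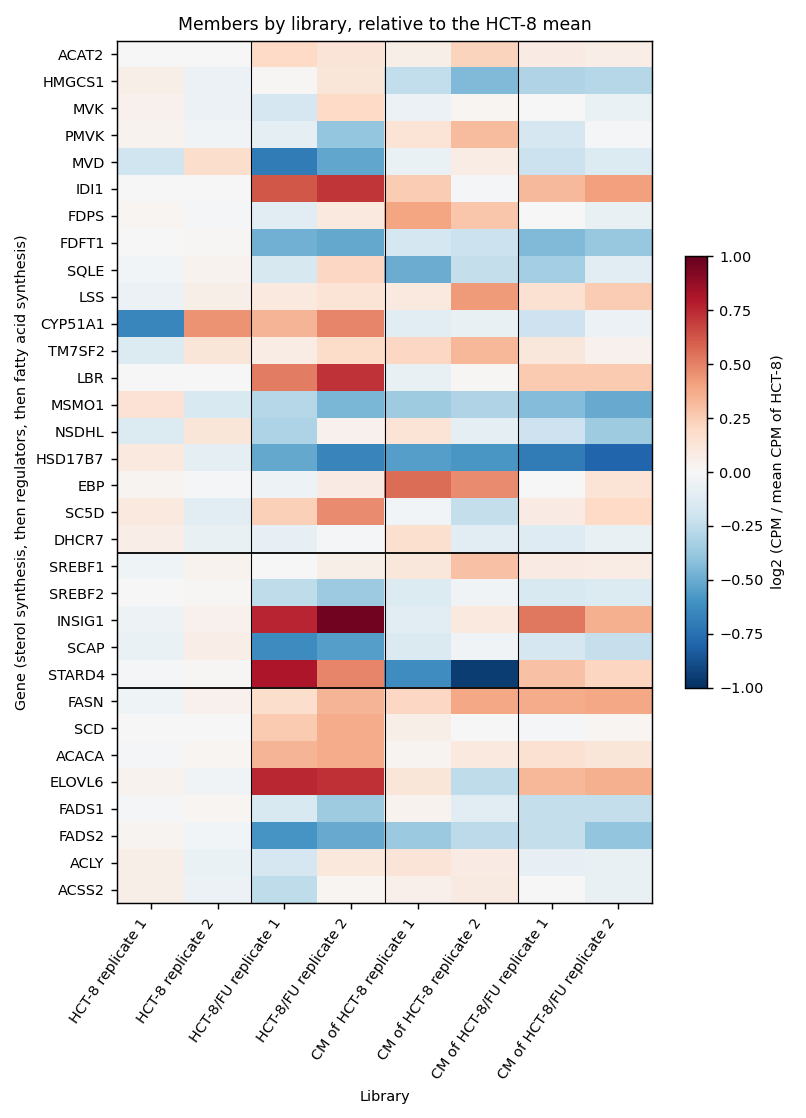
Heat map of the 32 members (rows, grouped by role) in the 8 libraries (columns); colour gives log2 of the CPM over the mean CPM of the 2 HCT-8 libraries, from -1 (blue) to 1 (red). INSIG1, IDI1, LBR, ELOVL6 and STARD4 are red in both HCT-8/FU libraries, and MVD, SCAP and FADS2 are blue there. HSD17B7 is blue in the 6 libraries outside HCT-8, and STARD4 is blue in CM of HCT-8 only. Most of the remaining cells are pale.

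The promoters of the members are shown because the pathway is defined by shared control, and 4 are printed. RefSeq promoter windows (GRCh38.p14, 250 bases before to 50 after a start site) were matched for 28 of the 32 members, with 38 windows between them; ACAT2, FDFT1, SQLE and FASN were not matched. A sterol regulatory element, searched as TCACNCCAC on both strands, was found in 1 of the 38 member windows (2.63%), that of SREBF2, and in 1.08% of the 17555 windows of tested genes. CCAAT, the letters of the NF-Y site, occurred on either strand in 65.8% of member windows and 34% of windows of tested genes, and GGGCGG, the letters of the Sp1 site, in 86.8% and 63.7%. These are matches of letters in a short window, and a window without a match only lacks these letters. SREBF2 is printed for its sterol regulatory element, and STARD4, HSD17B7 and INSIG1, chosen after their values were seen, for their changes described below. The 250 bases before the start site are given 5′ to 3′ on the strand of the gene, from chr22:41832855-41833104 (plus strand), chr5:111512536-111512785 (minus strand), chr1:162790452-162790701 (plus strand) and chr7:155297628-155297877 (plus strand) in that order. Capitals mark the sterol regulatory element of SREBF2, TCACCCCAC, whose first base lies at -133 from the start site, and each CCAAT or its reverse complement ATTGG.
SREBF2: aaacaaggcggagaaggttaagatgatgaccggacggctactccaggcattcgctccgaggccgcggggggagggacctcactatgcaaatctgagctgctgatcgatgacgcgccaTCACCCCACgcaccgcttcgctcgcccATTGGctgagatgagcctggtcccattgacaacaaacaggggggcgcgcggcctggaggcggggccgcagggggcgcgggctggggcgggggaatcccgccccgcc
STARD4: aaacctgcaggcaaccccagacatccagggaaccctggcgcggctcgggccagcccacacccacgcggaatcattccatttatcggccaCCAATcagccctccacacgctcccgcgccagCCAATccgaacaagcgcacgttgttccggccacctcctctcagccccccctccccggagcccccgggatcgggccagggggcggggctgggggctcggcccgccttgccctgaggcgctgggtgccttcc
HSD17B7: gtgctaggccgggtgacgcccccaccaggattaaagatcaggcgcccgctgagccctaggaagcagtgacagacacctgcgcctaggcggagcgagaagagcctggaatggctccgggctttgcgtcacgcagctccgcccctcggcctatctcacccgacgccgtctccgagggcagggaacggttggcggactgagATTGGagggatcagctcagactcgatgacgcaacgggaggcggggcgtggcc
INSIG1: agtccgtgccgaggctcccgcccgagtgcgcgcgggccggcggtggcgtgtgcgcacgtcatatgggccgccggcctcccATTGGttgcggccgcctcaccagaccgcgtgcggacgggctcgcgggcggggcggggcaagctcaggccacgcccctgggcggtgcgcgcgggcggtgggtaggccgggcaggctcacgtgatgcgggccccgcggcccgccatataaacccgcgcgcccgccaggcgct

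The first question was whether HCT-8 cells in CM from their own line changed these genes. Most of the 32 did not pass the test. A member is said to have risen or fallen where its edgeR adjusted p was at or under 0.05, and is counted as called where its log2 fold change was also at least 0.58 in size. In CM of HCT-8 against HCT-8, 3 members rose and 3 fell, against 9.04% and 10.4% of all tested genes. Of these 0 were called higher and 1 lower, STARD4, against 3.86% and 4.29% of all tested genes. The 32 log2 fold changes ran from -0.82 to 0.52 with a median of -0.0073, beside 0.0142 over all tested genes, and 16 lay above 0. Both CM libraries lay above both HCT-8 libraries for 10 members and below them for 8, against 27.2% and 27.1% of tested genes, and overlapped for 14. The standard error of a log2 fold change was 0.069 to 0.32 over the members, with a median of 0.11, so small changes could mostly not be resolved with 2 libraries a group.

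STARD4, a soluble carrier that moves cholesterol between membranes, made the largest change of the 32 in this comparison. Its level was 29.8 and 30.2 CPM in HCT-8, and 19.5 and 15.5 CPM in CM of HCT-8. The 2 CM libraries lay well below HCT-8, and the groups did not overlap. The log2 fold change was -0.82 ± 0.14 (SE), with an edgeR adjusted p of 0.00067. It remained past 0.05 in each of the 18 alternatives, and fell to -0.50 (adjusted p = 0.016), below the fold threshold, when GC content and length were corrected. At 34.62%, STARD4 had the lowest GC content of the 32 members, and the 2 CM of HCT-8 libraries were the ones in which GC-rich genes read highest. The part of GC content in this fall was not tested.

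EBP, the isomerase that moves the sterol ring double bond late in the route, rose. Its level was 29.4 and 28.5 CPM in HCT-8 and 42.6 and 40.2 CPM in CM of HCT-8, with no overlap, for a log2 fold change of 0.52 ± 0.10 (edgeR adjusted p = 0.0028). FDPS was at 95.6 and 93 CPM in HCT-8 and at 124 and 114 CPM in CM of HCT-8, a log2 fold change of 0.33 ± 0.09 (adjusted p = 0.015). FASN rose by 0.30 ± 0.08 (adjusted p = 0.015). The members that fell beside STARD4 were HMGCS1, the cytosolic HMG-CoA synthase, at -0.34 ± 0.09 (adjusted p = 0.019), and HSD17B7, a reductase of the 3-keto sterols, at -0.55 ± 0.16 (adjusted p = 0.026). None of these 5 passed 0.05 with GC content and length corrected, where EBP stood at 0.40 (adjusted p = 0.051), HSD17B7 at -0.43 (0.1), FDPS at 0.21 (0.27), FASN at 0.15 (0.38) and HMGCS1 at -0.16 (0.33). Single libraries also decided them: EBP missed 0.05 without replicate 2 of HCT-8 (0.42, adjusted p = 0.089), FDPS without replicate 1 of HCT-8 (0.34, 0.063) or 2 (0.24, 0.26), FASN without replicate 1 of HCT-8 (0.26, 0.13) or 2 (0.28, 0.12) or replicate 2 of CM of HCT-8 (0.20, 0.073), and HMGCS1 without replicate 1 of HCT-8 (-0.29, 0.12) or replicate 2 of CM of HCT-8 (-0.24, 0.13). HSD17B7 missed it without replicate 1 of HCT-8 (-0.48, 0.11), replicate 2 of CM of HCT-8 (-0.53, 0.11) or replicate 1 of CM of HCT-8/FU (-0.56, 0.06) or 2 (-0.56, 0.059), and with the 2 compared groups fitted alone HSD17B7 had an adjusted p of 0.066 and HMGCS1 of 0.064.

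The second question was the response of HCT-8 cells to CM from the resistant line, CM of HCT-8/FU against HCT-8, which uses the same 2 HCT-8 libraries as controls. Again most members did not pass the test, and those that did went both ways. In all 5 rose (13% of tested genes did) and 4 fell (11.7%), and 0 were called higher (7.16%) and 1 lower (3.28%), HSD17B7. The log2 fold changes ran from -0.73 to 0.43 with a median of -0.0342, beside 0.0154 over all tested genes. The CM libraries lay above HCT-8 for 10 members (34.4% of tested genes), below for 12 (31.3%) and overlapped for 10. STARD4, which fell in CM of HCT-8, was at 36.8 and 34.8 CPM here, above both HCT-8 libraries but with a log2 fold change of 0.26 ± 0.12 (edgeR adjusted p = 0.15), which became -0.12 with GC content and length corrected.

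HSD17B7 was at 15.8 and 13.9 CPM in HCT-8, at 10.1 and 9.87 CPM in CM of HCT-8 and at 9.14 and 8.56 CPM in CM of HCT-8/FU. All 4 CM libraries thus lay below both HCT-8 libraries, and the HCT-8/FU libraries, at 10.4 and 9.36 CPM, did as well. Its log2 fold change in CM of HCT-8/FU was -0.73 ± 0.16 (edgeR adjusted p = 0.0031), and it was -0.92 (0.00091) with GC content and length corrected. Without replicate 2 of CM of HCT-8/FU it was -0.68 with an adjusted p of 0.06.

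The other members that fell in CM of HCT-8/FU are also among the 19 sterol synthesis genes, of which 4 fell and 2, IDI1 and LBR, rose. FDFT1, which commits farnesyl diphosphate to sterols, was at 121 to 122 CPM in HCT-8 and 89.2 to 93 CPM here, a log2 fold change of -0.41 ± 0.07 (edgeR adjusted p = 0.00079) that passed 0.05 in all 18 alternatives. MSMO1, the C4-methyl sterol oxidase, fell by 0.44 ± 0.12 (adjusted p = 0.014), and HMGCS1 by 0.29 ± 0.09 (0.031). MSMO1, HMGCS1 and HSD17B7 have exons of low GC content, 38.85%, 40.33% and 40.93%, and with the correction MSMO1 stood at -0.71 (adjusted p = 0.0011) and HMGCS1 at -0.51 (0.0021). MSMO1 missed 0.05 without replicate 1 of HCT-8 (-0.31, 0.13) or replicate 1 of CM of HCT-8/FU (-0.48, 0.078) or 2 (-0.41, 0.13), and HMGCS1 missed it when any 1 of the 4 compared libraries was left out (-0.36 to -0.24, 0.08 to 0.19) and with replicate 2 of CM of HCT-8 as the scaling reference (-0.21, 0.1).

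The members that rose in CM of HCT-8/FU were INSIG1, FASN, IDI1, ELOVL6 and LBR. INSIG1, the sterol-dependent brake on SREBP processing and itself a known SREBP target, was at 23.8 and 25.4 CPM in HCT-8, at 22.7 and 26.3 CPM in CM of HCT-8 and at 35.4 and 31.5 CPM in CM of HCT-8/FU. Only CM of HCT-8/FU lay clear of HCT-8 among the CM groups, with a log2 fold change of 0.43 ± 0.11 (edgeR adjusted p = 0.012), and of 0.39 (0.037) with the GC correction. It missed 0.05 without replicate 1 of HCT-8 (0.40, 0.074) or 2 (0.48, 0.069) or replicate 1 of CM of HCT-8/FU (0.35, 0.16). FASN went from 356 to 378 CPM in HCT-8 to 474 to 479 CPM, a log2 fold change of 0.38 ± 0.08 (0.0026) that held with every single library left out and dropped to 0.18 (0.25) with the GC correction. At 65.2%, FASN had the highest GC content of the members, while over all genes Spearman's rho of the log2 fold change with GC content was -0.142 here. The part of GC content in this rise was not tested. IDI1, the isopentenyl diphosphate isomerase, rose by 0.37 ± 0.11 (edgeR adjusted p = 0.025), ELOVL6, the elongase of saturated acids, by 0.35 ± 0.12 (0.037), and LBR by 0.26 ± 0.08 (0.029). All of them missed 0.05 when any 1 of the 4 compared libraries was left out (0.25 to 0.41) and with the GC correction (0.26, 0.19 and 0.14). ELOVL6 also missed it without replicate 1 of HCT-8/FU (0.35). Of the 18 alternatives, IDI1 passed 0.05 in 11, ELOVL6 in 9 and LBR in 12.

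**Figure D2:**
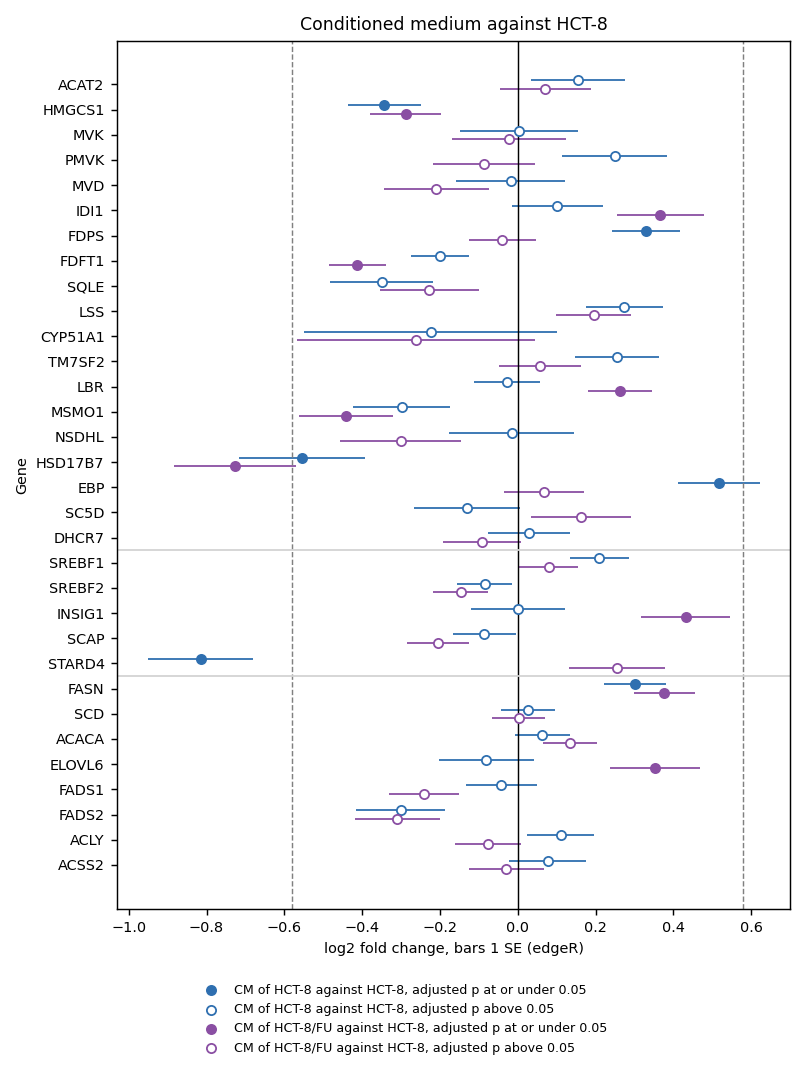
log2 fold change (x axis, with 1 SE) of each of the 32 members (y axis) in CM of HCT-8 (blue) and CM of HCT-8/FU (purple) against HCT-8; filled points have an edgeR adjusted p at or under 0.05 and dashed lines mark the fold threshold of 0.58. Only STARD4 in CM of HCT-8 (-0.82) and HSD17B7 in CM of HCT-8/FU (-0.73) are filled and lie past the dashed lines.

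Both CM groups together were then set against HCT-8, which asks what any conditioning did; these 4 CM libraries and 2 controls are those of the previous comparisons. Here 2 members rose (9.57% of tested genes) and 5 fell (10.2%), with 0 called higher (3.76%) and 1 lower (2.57%), HSD17B7 at -0.64 ± 0.14 (edgeR adjusted p = 0.0036). The median was 0.0154, beside 0.0125 over all tested genes. All 4 CM libraries lay above HCT-8 for 5 members (16.2% of tested genes) and below for 7 (15.6%). Those below were HMGCS1, FDFT1, SQLE, MSMO1, HSD17B7, SREBF2 and FADS2, and those above were ACAT2, LSS, SREBF1, FASN and ACACA. FDFT1 fell by 0.31 ± 0.06 (adjusted p = 0.0032), HMGCS1 by 0.32 ± 0.08 (0.011), MSMO1 by 0.37 ± 0.11 (0.023) and FADS2, the delta-6 desaturase, by 0.31 ± 0.10 (0.036). FASN rose by 0.34 ± 0.07 (0.0028) and EBP by 0.29 ± 0.09 (0.034), although the CM of HCT-8/FU libraries of EBP overlapped HCT-8. With GC content and length corrected 0 members rose and 6 fell. The share of all tested genes under the correction is not given here. The 6 were HSD17B7, FDFT1, HMGCS1, MSMO1, FADS2 and STARD4 (-0.31, edgeR adjusted p = 0.047). STARD4 as tested lay below HCT-8 in CM of HCT-8 and above it in CM of HCT-8/FU.

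HSD17B7 dropped to -0.56 (adjusted p = 0.039), below the fold threshold, without replicate 1 of HCT-8, the shallower control. Without that library HMGCS1 (-0.27, 0.12), FASN (0.30, 0.061) and MSMO1 (-0.24, 0.25) missed 0.05, and MSMO1 also without replicate 1 of CM of HCT-8/FU (-0.39, 0.057) or 2 (-0.36, 0.081). FADS2 and EBP missed it when any 1 of the HCT-8 or CM of HCT-8/FU libraries was left out (adjusted p 0.066 to 0.35). The kinases and the decarboxylase of the mevalonate steps did not pass 0.05: MVK, the mevalonate kinase, was at -0.01 ± 0.13, PMVK at 0.08 ± 0.12 and MVD at -0.11 ± 0.12. The late enzymes DHCR7 (-0.03 ± 0.09), SC5D (0.02 ± 0.12), NSDHL (-0.16 ± 0.14) and TM7SF2 (0.16 ± 0.09) and the fatty acid genes SCD (0.01 ± 0.06), ACLY (0.02 ± 0.07), ACSS2 (0.02 ± 0.08) and FADS1 (-0.14 ± 0.08) did not pass 0.05 either. SQLE, the squalene epoxidase and a rate-limiting step, was at -0.29 ± 0.11 (0.09), and LSS, the lanosterol synthase that follows it, at 0.23 ± 0.09 (0.071). CYP51A1 was at -0.24 ± 0.27, the largest standard error of the 32. Its HCT-8 libraries read 1.97 and 4.23 CPM, on both sides of the 4 CM libraries (2.69 to 2.98 CPM), and its value was -0.56 without replicate 1 of HCT-8 and 0.50 without replicate 2.

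The resistant line itself was compared with its parent in unconditioned medium, HCT-8/FU against HCT-8, for scale. More members changed than in either CM comparison, again in both directions, and so did more of all tested genes. In all 9 rose (18.6% of tested genes) and 6 fell (18.1%), with 5 called higher (13.2%) and 2 lower (8.12%). The median was -0.000015, beside 0.0082 over all tested genes. As elsewhere in bulk RNA, a change in every cell cannot be told apart from a change in the share of cells that express a gene.

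INSIG1 rose most, to 41.8 and 48 CPM in HCT-8/FU from 23.8 and 25.4 CPM, a log2 fold change of 0.84 ± 0.12 (edgeR adjusted p = 4.9e-05). It remained called in all 18 alternatives, and stood at 0.73 (0.00064) with the GC correction, where it was the only member called higher. ELOVL6 was at 27.1 and 25.7 CPM in HCT-8, at 44.6 and 43.8 CPM in HCT-8/FU, at 28.7 and 22.1 CPM in CM of HCT-8 and at 33.3 and 33.7 CPM in CM of HCT-8/FU. HCT-8/FU thus held the highest values of ELOVL6, and its log2 fold change there was 0.75 ± 0.12 (0.00014). IDI1 was at 23.7 CPM in both HCT-8 libraries and at 36.5 and 38.9 CPM in HCT-8/FU, while CM of HCT-8 had 28.2 and 23.5 CPM and CM of HCT-8/FU 29.7 and 31.5 CPM. Its log2 fold change in the resistant line was 0.66 ± 0.12 (0.00034), and LBR, at 95.9 to 96 CPM in HCT-8 and 137 to 158 CPM in HCT-8/FU, rose by 0.61 ± 0.08 (3.5e-05). With the GC correction ELOVL6 (0.41, 0.021), IDI1 (0.44, 0.016) and LBR (0.36, 0.015) still rose but lay below the fold threshold, and LBR did so too without replicate 2 of HCT-8/FU (0.51).

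STARD4 read 52.6 and 42 CPM in HCT-8/FU, above all other libraries, for a log2 fold change of 0.69 ± 0.13 (edgeR adjusted p = 0.00051). The correction for GC content and length took it to -0.03 (0.89), and leaving out replicate 1 of HCT-8/FU to 0.48 (0.036). SCD rose by 0.32 ± 0.07 (0.0019), and ACACA, the acetyl-CoA carboxylase, by 0.35 ± 0.07 (0.0011), with 0.31 and 0.30 under the correction. SCD missed 0.05 by little without replicate 2 of HCT-8 (0.29, 0.051). FASN at 0.26 ± 0.08 (0.019) missed it without replicate 1 of HCT-8 (0.21, 0.15) or 2 (0.28, 0.077) or replicate 2 of HCT-8/FU (0.17, 0.17), and SC5D at 0.36 ± 0.13 (0.049) when any 1 of the 4 compared libraries or either CM of HCT-8/FU library was left out (0.21 to 0.49, 0.051 to 0.44), as well as under 6 other alternatives, among them the GC correction, where its sign turned (-0.30, 0.13).

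The members that fell in HCT-8/FU included SCAP, the escort of the SREBP factors, and SREBF2. SCAP was at 121 and 133 CPM in HCT-8, at 82.3 and 86.9 CPM in HCT-8/FU, at 115 and 124 CPM in CM of HCT-8 and at 113 and 108 CPM in CM of HCT-8/FU. HCT-8/FU thus lay apart from the other 3 groups, with a log2 fold change of -0.59 ± 0.08 (edgeR adjusted p = 4.3e-05) that sat at the fold threshold: it was -0.55 without replicate 2 of HCT-8, -0.56 without replicate 1 of HCT-8/FU, and -0.37 (0.0078) with the GC correction. SREBF2 fell by 0.31 ± 0.07 (0.0032), and by 0.15 (0.22) with the correction. MVD, the mevalonate diphosphate decarboxylase, was at 19.2 and 24.9 CPM in HCT-8, at 13.6 and 15.4 CPM in HCT-8/FU, at 21.1 and 23.3 CPM in CM of HCT-8 and at 19 and 20.1 CPM in CM of HCT-8/FU. Its log2 fold change in HCT-8/FU was -0.67 ± 0.15 (0.002), and it missed 0.05 without replicate 2 of HCT-8 (-0.47, 0.075) or replicate 1 of HCT-8/FU (-0.57, 0.063). With the GC correction it was -0.43 (0.04), below the fold threshold, so that neither SCAP nor MVD was called there.

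FDFT1 fell by 0.49 ± 0.08 in HCT-8/FU (edgeR adjusted p = 0.0001), and HSD17B7 by 0.54 ± 0.16 (0.017). HSD17B7 missed 0.05 without replicate 1 of HCT-8 (-0.47, 0.07) or replicate 1 of HCT-8/FU (-0.65, 0.051) or 2 (-0.49, 0.056), and was called, at -0.93 (0.00073), with the GC correction. FADS2 was at 30.5 and 29.3 CPM in HCT-8, at 19.9 and 21.1 CPM in HCT-8/FU, at 23.1 and 25 CPM in CM of HCT-8 and at 25.3 and 22.8 CPM in CM of HCT-8/FU, so that HCT-8 was highest and HCT-8/FU lowest, with a log2 fold change of -0.56 ± 0.12 (0.0016), and of -0.41 (0.024) with the GC correction. MSMO1 was at -0.32 ± 0.13 (0.06) and was called, at -0.84 (0.00025), only with the GC correction. Under that correction 8 members rose and 7 fell, and the share of all tested genes is not given here. HMGCS1 turned from 0.06 to -0.38 (edgeR adjusted p = 0.011) and TM7SF2 stood at 0.35 (0.036), neither past 0.05 as tested. FASN stood at 0.41 (0.0082). Over the 32 members Spearman's rho of the log2 fold change with GC content was -0.431 in this comparison, beside -0.397 over all genes, and 0.136 after the correction; the members share the libraries, and the values are given as a description. The corresponding values before and after correction were 0.578 and 0.179 for CM of HCT-8 and 0.00696 and 0.196 for CM of HCT-8/FU, both against HCT-8.

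**Figure D3:**
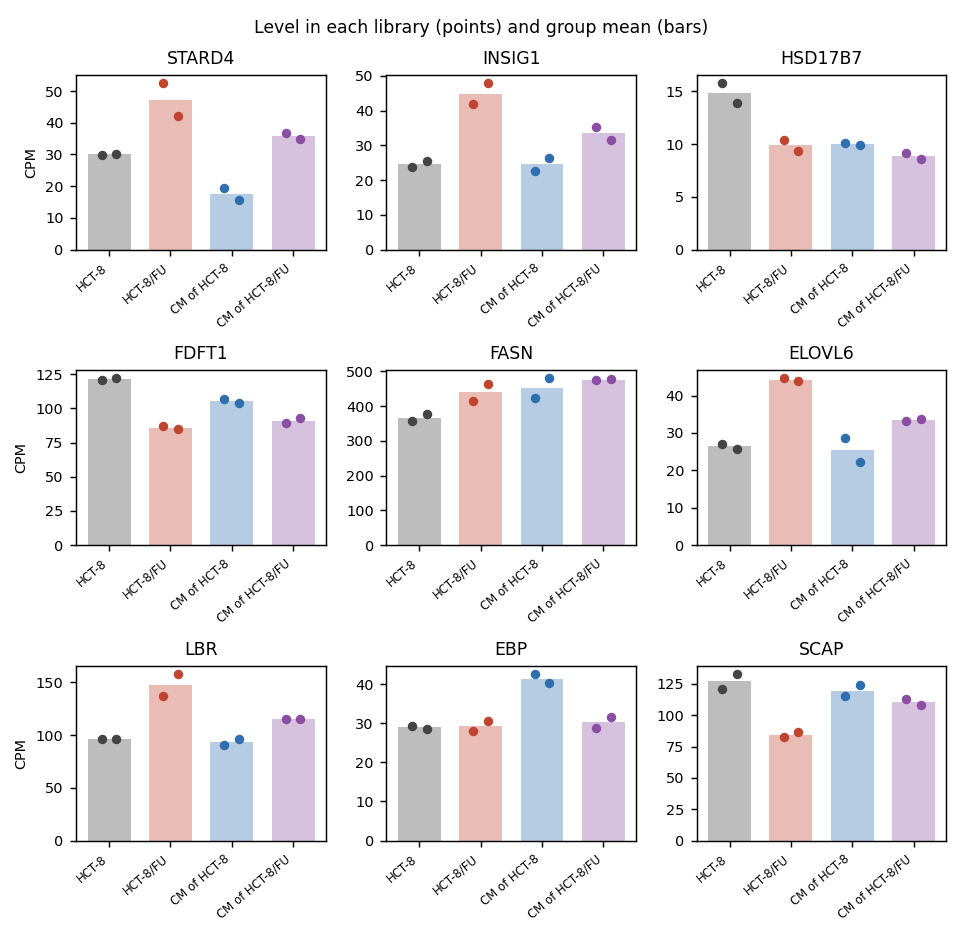
CPM (y axis, from 0) of 9 members in each library (points) and the group mean of 2 libraries (bars) for the 4 groups (x axis). INSIG1, ELOVL6 and LBR stand highest in HCT-8/FU with CM of HCT-8/FU next, HSD17B7 and FDFT1 stand highest in HCT-8, and STARD4 is lowest in CM of HCT-8, at 15.5 to 19.5 CPM.

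**Figure D4:**
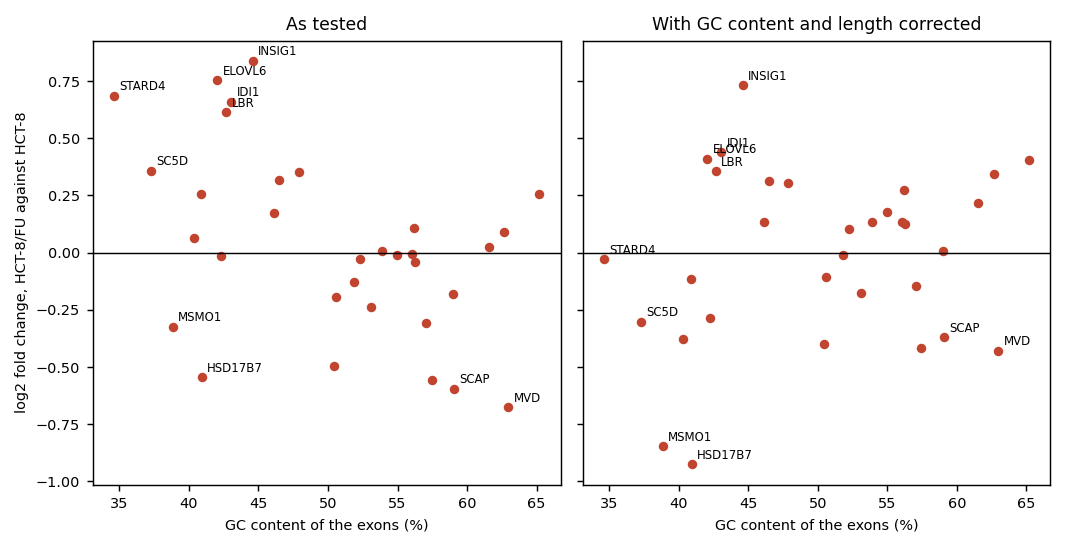
log2 fold change of the 32 members in HCT-8/FU against HCT-8 (y axis) by the GC content of their exons (x axis, percent), as tested (left) and with GC content and length corrected (right). STARD4, at 34.62% GC, moves from 0.69 to -0.03, INSIG1 only from 0.84 to 0.73, and HSD17B7 from -0.54 to -0.93.

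The comparison of the CM groups with each other, with CM of HCT-8/FU set against CM of HCT-8, asks what the source of the medium changed and shares no library with the comparison of the 2 lines. Here 4 members rose (11.2% of tested genes) and 2 fell (8.49%), with 1 called higher (7.97%), STARD4, and 0 lower (1.28%). The median over the members was -0.0818, beside -0.0592 over all tested genes. STARD4 rose by 1.07 ± 0.13 (edgeR adjusted p = 3e-05), from 19.5 and 15.5 CPM to 36.8 and 34.8 CPM, and by 0.38 (0.059) with the GC correction. INSIG1 rose by 0.43 ± 0.11 (0.015), ELOVL6 by 0.43 ± 0.12 (0.017) and LBR by 0.29 ± 0.08 (0.021). EBP fell by 0.45 ± 0.10 (0.0049), to 28.8 and 31.7 CPM, and FDPS by 0.37 ± 0.09 (0.0063), to 93.8 and 89.4 CPM, both below the 2 CM of HCT-8 libraries. In HCT-8/FU, EBP was at 27.9 and 30.6 CPM and FDPS at 87.5 and 101 CPM.

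None of these 6 passed 0.05 with GC content and length corrected, where INSIG1 stood at 0.40 (edgeR adjusted p = 0.055), ELOVL6 at 0.13 (0.59), LBR at 0.08 (0.7), EBP at -0.32 (0.11) and FDPS at -0.22 (0.24). MSMO1 (-0.56, 0.01) and HMGCS1 (-0.35, 0.038) passed it instead. INSIG1 missed 0.05 without replicate 1 of CM of HCT-8/FU (0.35, 0.19), as did EBP (-0.38, 0.12), and FDPS without replicate 2 of CM of HCT-8/FU (-0.33, 0.1). LBR (0.29, 0.15 and 0.30, 0.13) and ELOVL6 (0.44, 0.099 and 0.42, 0.11) missed it without either of these, and ELOVL6 without replicate 2 of CM of HCT-8 (0.23, 0.25).

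Whether the difference between the resistant and parental lines differed from the difference between their media was tested as an interaction over all 8 libraries. Of the members 1 was higher past 0.05 (5.15% of tested genes), SCD, and 2 were lower (6.42%), SCAP and FADS2, with 0 called higher (3.55%) and 0 lower (4.14%). The median of the interaction was 0.12, beside 0.0135 over all tested genes. SCD differed by 0.34 ± 0.10 (edgeR adjusted p = 0.033), having 357 and 384 CPM in HCT-8/FU and 294 to 309 CPM in the 6 other libraries. SCAP differed by -0.48 ± 0.12 (0.014) and FADS2 by -0.55 ± 0.16 (0.04). For INSIG1, higher in both comparisons, the interaction was 0.41 ± 0.17 (0.14), so a smaller rise with CM than in the resistant line itself was not resolved. MVD (-0.48 ± 0.20, 0.15), EBP (0.46 ± 0.15, 0.061) and HSD17B7 (-0.37 ± 0.23, 0.36) did not pass either.

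Genes that border the pathway were counted in the same way, from lists that hold none of the 32. The shares of all tested genes called higher and lower, given above, were 3.86% and 4.29% for CM of HCT-8, 7.16% and 3.28% when the medium came from HCT-8/FU, and 13.2% and 8.12% for the HCT-8/FU line, each against HCT-8. In the isoprenoid branch, 1 of 9 was called higher in each comparison with HCT-8: PDSS1, which builds the tail of coenzyme Q, at 0.80 ± 0.26 (edgeR adjusted p = 0.041) in CM of HCT-8, 1.20 ± 0.24 (0.0021) in CM of HCT-8/FU and 1.07 ± 0.26 (0.0041) in HCT-8/FU. It was near 3 CPM in HCT-8, and the value in CM of HCT-8 rested on replicate 2 of that group (0.31 and 0.58 without it) and missed 0.05 in 12 of 18 alternatives; the value in HCT-8/FU missed it without replicate 2 of HCT-8 (1.03, 0.059). In HCT-8/FU 2 of the 9 were also called lower, DHDDS at -0.65 ± 0.09 (adjusted p = 2.7e-05) and RABGGTA at -0.62 ± 0.10 (0.00013), and both lay below the fold threshold with the other scaling reference (-0.56 and -0.53), as RABGGTA did with the GC correction (-0.38). Among 9 genes of SREBP processing and sterol sensing, 0 were called in either CM group against HCT-8, and in HCT-8/FU 1 was higher, the protease gene MBTPS2 (0.85 ± 0.14, 0.00017; 0.28 with the GC correction), and 1 lower, the oxysterol receptor gene NR1H2 (-0.95 ± 0.12, 1.5e-05). Of 7 genes of sterol uptake, storage and movement, the cholesterol exporter ABCG1 was called lower in CM of HCT-8 (-0.67 ± 0.16, 0.0087). It was -0.62 without replicate 2 of HCT-8, where it missed 0.05, and -0.57 without replicate 1 of CM of HCT-8. The sterol carrier OSBP was called lower in CM of HCT-8/FU (-0.65 ± 0.07, 1.1e-05), though not with the other scaling reference (-0.576). OSBP was at 317 and 315 CPM in HCT-8 and was also lower in CM of HCT-8, at 224 and 229 CPM. Past 0.05, without the fold threshold, 3 of the 7 rose (9.04% of tested genes) and 2 fell (10.4%) in CM of HCT-8. In CM of HCT-8/FU 1 rose (13%) and 2 fell (11.7%). In HCT-8/FU 1 was called higher, SOAT1 (0.68, and 0.20 with the GC correction), and 2 lower.

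Of 13 genes of fatty acid activation, elongation and glycerolipid synthesis, 1 was called higher in CM of HCT-8, 2 higher and 1 lower in CM of HCT-8/FU, and 3 higher in HCT-8/FU. DGAT1, which makes triacylglycerol, was at 40.2 and 41.4 CPM in HCT-8, at 66.8 and 63.4 CPM in CM of HCT-8 and at 70.2 CPM in both CM of HCT-8/FU libraries. These values did not overlap, and DGAT1 rose by 0.67 ± 0.09 (edgeR adjusted p = 0.00017) and 0.78 ± 0.09 (2.5e-05), more than any of the 32 members rose in either CM group. In HCT-8/FU it was at 43.3 and 38.1 CPM, on both sides of HCT-8. With the GC correction the first of these was 0.47 (0.0082). ACSL4, a ligase for polyunsaturated acids, was at 21.9 and 23.2 CPM in HCT-8, 18 and 15 CPM in CM of HCT-8, 37.3 and 36.7 CPM in CM of HCT-8/FU and 51 and 54.5 CPM in HCT-8/FU. It was called higher in CM of HCT-8/FU (0.71 ± 0.11, 0.00024) and HCT-8/FU (1.21 ± 0.11, 8.1e-07), and lay at 0.35 and 0.53, below the fold threshold, with the GC correction. ACSL3 and GPAM, the other genes called higher in HCT-8/FU, stood at 0.17 and 0.32 with that correction, also below the threshold. ACSL1, called lower in CM of HCT-8/FU (-0.60), was at -0.52, below the threshold, with the other scaling reference. Of 12 genes of fatty acid oxidation and ketogenesis, 0 were called in any CM comparison and 1 in HCT-8/FU, ACADM (0.99 ± 0.09, 1e-06; 0.48 with the GC correction).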

How the data were processed

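Libraries were made with a VAHTS Universal V6 kit and sequenced as paired reads. Per the labels and the methods of the study, reads were aligned to GRCh38 with HISAT2, sorted with SAMtools (version 1.18) and counted per Ensembl gene with HTSeq (version 0.11.2); the sources used here do not state the strand setting. The authors deposited raw counts per gene for each library, and 2 tables of their own comparisons made with DESeq2 (version 1.30.0), which hold fold changes and p-values and were not used. The rows of each count table that name no gene were left out; records on no feature made up 33.68% to 49.62%.

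Counts of all 8 libraries were fitted by group in edgeR (version 4.0.16, R version 4.3.3) with TMM scaling and the default filter on low counts, and each comparison was tested with the quasi-likelihood test and Benjamini-Hochberg adjustment over 20305 genes (threshold 0.05). The standard error is the log2 fold change over the root of the F statistic. CPM values are scaled by TMM. Exon lengths and GC content came from GENCODE 44, which held 56105 of 64253 identifiers; the correction fitted a spline with 5 degrees of freedom to each library. Replicates differed by more than sampling noise (median chi-square 1.03 to 2.06 per gene, where sampling gives 0.455). The fits were tested on simulated counts. Replicate numbers were not treated as pairs in the main fit. Alternatives were DESeq2 (version 1.42.0), its size factors, another TMM reference, no filter or a mean normalized count of at least 10, the compared groups alone, a replicate block, the GC correction with and without the block, a term for the libraries with many unaligned records, and each library left out. The members and lists were chosen with earlier results of these data known. Values in every library are given for members called in a comparison of CM with HCT-8 and for the 5 members with the largest change in each other comparison. From each bordering list up to 3 genes with the smallest p are named, and some others whose call an alternative removed.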

Additional observations from a re-analysis of the deposited data

Results flagged for a closer look

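The 3 members below differed between the comparison of the lines (HCT-8/FU against HCT-8) and the comparison of the media (CM of HCT-8/FU set against CM of HCT-8), by the edgeR interaction test over all 8 libraries.

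SCAP had an interaction of -0.48 ± 0.12 (edgeR adjusted p = 0.014): its log2 fold change was -0.59 between the lines and -0.12 between the media. It missed 0.05 without replicate 1 of HCT-8/FU (-0.44, 0.06) and without replicate 1 of CM of HCT-8/FU (-0.46, 0.089) or 2 (-0.51, 0.052).

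FADS2 had an interaction of -0.55 ± 0.16 (edgeR adjusted p = 0.04), from -0.56 between the lines and -0.01 between the media. It missed 0.05 in 10 of 17 alternatives, among them the fits without any 1 library other than replicate 2 of CM of HCT-8 (-0.67 to -0.48, 0.051 to 0.23).

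SCD had an interaction of 0.34 ± 0.10 (edgeR adjusted p = 0.033), from 0.32 between the lines and -0.02 between the media. It missed 0.05 in 10 of 17 alternatives, among them the fits without replicate 1 of HCT-8 (0.33, 0.098) or 2 (0.25, 0.29), replicate 2 of HCT-8/FU (0.28, 0.11) and replicate 1 of CM of HCT-8/FU (0.32, 0.21) or 2 (0.35, 0.16).

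With GC content and length corrected none of the 3 passed 0.05: SCAP stood at -0.35 (edgeR adjusted p = 0.11), FADS2 at -0.43 (0.16) and SCD at 0.31 (0.17). The interactions of all 32 members were tested, and the adjustment was made over all 20305 genes.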

How the results depend on the processing

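Counts are of called members, higher or lower. In CM of HCT-8 against HCT-8 the count lower was 2 with DESeq2 size factors and with DESeq2, and 0 with the GC content and length correction; with 1 library left out it was 1 to 2. In CM of HCT-8/FU against HCT-8 the count lower was 2 with the GC correction and 0 to 2 with 1 library left out, and the median log2 fold change was 0.0419 when TMM was referred to replicate 2 of CM of HCT-8. For both CM groups against HCT-8 the count lower was 0 to 1 with 1 library left out. In HCT-8/FU against HCT-8 the count higher was 1 with the GC correction; the count lower was 1 with the other TMM reference and with a mean normalized count of at least 10, and 0 to 3 with 1 library left out; the median was 0.0902 with the other TMM reference and -0.0629 to 0.1108 with 1 library left out. In CM of HCT-8/FU set against CM of HCT-8 the count higher was 0 with the GC correction and 1 to 2 with 1 library left out, and the median was 0.0031 with the other TMM reference, 0.0063 with the 2 groups fitted alone, and -0.12 to -0.0188 with 1 library left out. For the interaction the count lower was 1 with no filter and 0 to 1 with 1 library left out, and the median was 0.0551 with the term for unaligned records and 0.0151 to 0.19 with 1 library left out. The medians are descriptions, and the pooled SD between replicates was 0.0575.

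Without the fold threshold the counts higher and lower were 3 and 3 for CM of HCT-8, 5 and 4 for CM of HCT-8/FU, 2 and 5 for both CM groups, 9 and 6 for HCT-8/FU, 4 and 2 between the CM groups, and 1 and 2 for the interaction. STARD4 in HCT-8/FU against HCT-8 was -0.0277 with the GC correction and -0.0498 with the GC correction and the replicate block together.

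Correlations of same-numbered deviations between groups ran from -0.123 to 0.132. They have no reference value, so they cannot show whether the replicate numbers pair the libraries. A replicate block alone changed no count of called members by over 1.5 times. The block with the GC correction gave the counts of the GC correction alone: 0 lower in CM of HCT-8, 2 lower in CM of HCT-8/FU, 1 higher in HCT-8/FU and 0 higher between the CM groups. The cause of these shifts was not tested. Depth limits CYP51A1 most.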
